A study of Mus musculus with 8 samples.

Results

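The comparison described here is differentiation of the mutant line: mouse embryonic stem cells heterozygous for R141C in Nkx2-5, at day 6 of differentiation against day 0. Its members are the 4 of 8 arrays whose labels give that genotype, 2 at day 6 and 2 at day 0. The series measured RNA in R141C and in wild-type (WT) cells at both days, with 2 biological replicates in each of the 4 groups and 1 single-colour Agilent array per culture. Day 6 R141C cells had been taken through embryoid bodies without LIF, first in hanging drops, then in suspension, and last plated on gelatin. Day 0 R141C cells carried the same heterozygous change and were not differentiated. WT day 6 and WT day 0 cultures were handled in the same way and carry no R141C copy. The labels do not say how many lines or clones of each genotype were used, so a difference between genotypes may also be one between lines.

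Nkx2-5 is a homeobox factor that, with Gata, T-box and Hand factors, starts the heart programme in lateral mesoderm. Embryonic stem cells are held in an undifferentiated state by factors such as Pou5f1, Sox2 and Nanog. When LIF is withdrawn and embryoid bodies form, cells pass through a state like the primitive streak, and mesoderm, endoderm and extraembryonic cell types arise side by side. Such cultures are mixtures, and the heart lineage is one part of them. In these bulk samples, fewer cells of a type and less RNA per cell cannot be told apart.

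Signals below are log2 of the processed signal minus the 75th percentile of the array, so that 0 is that percentile. Over the 4 R141C arrays 33913 to 38164 probes were well above background, and that percentile stood at 936 and 1243 intensity units at day 6, against 1299 and 1649 at day 0. Across the 25892 tested genes the 2 cultures correlated with r = 0.982 at day 6 and 0.986 at day 0, and day 6 with day 0 cultures with r = 0.936 to 0.947. The 2 cultures of a day were more than 2 apart on the log2 scale for 523 genes at day 6 and 322 at day 0. All arrays were on 1 slide. The first position number in the file headers separated day 6 from day 0, so that slide position and day cannot be told apart. By the second position number the arrays of each day ran WT, then R141C, with the replicates of each in the same order at both days. Genotype and replicate number are therefore tied to position as well. The labels call the replicates biological without saying what separates them, and with 2 arrays per group their number limits the precision.

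Differentiation changed 4048 of 25892 tested genes in R141C cells (limma, adjusted p under 0.05), 15.6% of all tested. Of these, 1969 (7.6%) were higher and 2079 (8.03%) lower at day 6. The change was at least 2-fold for 3510 of them, and at least 8-fold for 500 that rose and 351 that fell. The median change over all tested genes was -0.03. The 2 cultures of each day did not overlap for 14501 genes (56% of those tested). The signal of 295 genes was well above background on both day 6 arrays and on neither day 0 array, and 252 of these were called higher. The reverse held for 966 genes, of which 360 were called lower. Day 0 arrays had more probes above background (38164 and 35912) than day 6 arrays (33913 and 34802), and its part in these counts was not tested. Protein-coding genes made up 16534 of the tested genes, with 9.65% higher and 8.85% lower. The 830 long noncoding RNAs had 8.19% higher and 8.07% lower, and the 8191 array names without a current symbol 3.59% and 6.37%. Counts of called genes in the gene lists below are to be read beside the 7.6% and 8.03% of all tested genes. A gene below background in R141C day 0 cells could enter the test only through another group, and could hardly be called lower. In lists with low day 0 signals, such as red cell, blood regulator, myeloid, definitive endoderm and Hox genes, the absence of falls was partly set by this filter. Some lists were near these shares, such as basement membrane (6.25% higher and 6.25% lower) and heat shock and unfolded protein genes (6.67% and 6.67%).

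With each of the 8 arrays left out in turn, 1245 of the 4048 genes (30.8%) kept their call every time, 626 of them higher and 619 lower. The count fell most without day 0 replicate 1 of R141C, to 1619. A called gene named below kept its call in all 8 of these fits unless the text says otherwise. Where it did not, the arrays whose absence ended the call are named with the largest adjusted p. The arrays of WT entered because all groups share 1 estimate of the spread. Omitting either WT array of the same day gave the same result for this comparison, so such a pair of fits is a single check.

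Of the 15 largest rises, 6 were in the list of globins and red cell genes, 2 in that of cardiac regulators, 1 each in those of myeloid cells and visceral endoderm, and 5 in none of the 44 lists. Hba-x, the embryonic alpha-like globin, had signals of 5.20 and 3.81 at day 6 and was not well above background at day 0, which is at least 1451-fold higher (adjusted p = 0.000455). Ttr, a carrier of thyroid hormone and retinol made by yolk sac endoderm and liver, was at 3.09 and 4.56 at day 6 and below background at day 0, at least 905-fold higher (adjusted p = 0.000437). Pf4, a platelet chemokine, was at 3.71 and 1.71 at day 6, at least 418-fold higher than day 0 (adjusted p = 0.000725). These 3 genes went with Hbb-y and Hbb-bh1, the embryonic beta-like globins, which were 973-fold and 860-fold higher (adjusted p = 0.000697 and 0.000455). Prdm6, a transcriptional repressor of smooth muscle and heart development, was at 2.85 and 3.04 at day 6 and at -8.23 and -5.18 at day 0, where 1 of 2 arrays was above background (fitted log2 change 9.65 ± 0.86, SE; adjusted p = 0.00151). Its change was 8.13 without day 0 replicate 1, the array not above background, and 11.18 without day 0 replicate 2. The remaining members of the 15 largest were Hba-a1, Hba-a2, S100g, a calcium-binding protein, Plek of platelets and leukocytes, Nepn, Prss12, Hand2, Foxf1 of lateral mesoderm, and Alas2 of haem synthesis. Their log2 changes ran from 7.38 ± 0.79 for Foxf1 to 8.70 ± 0.52 for Hba-a2, or were at least 189-fold for Nepn and 154-fold for Alas2.

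**Figure D1:**
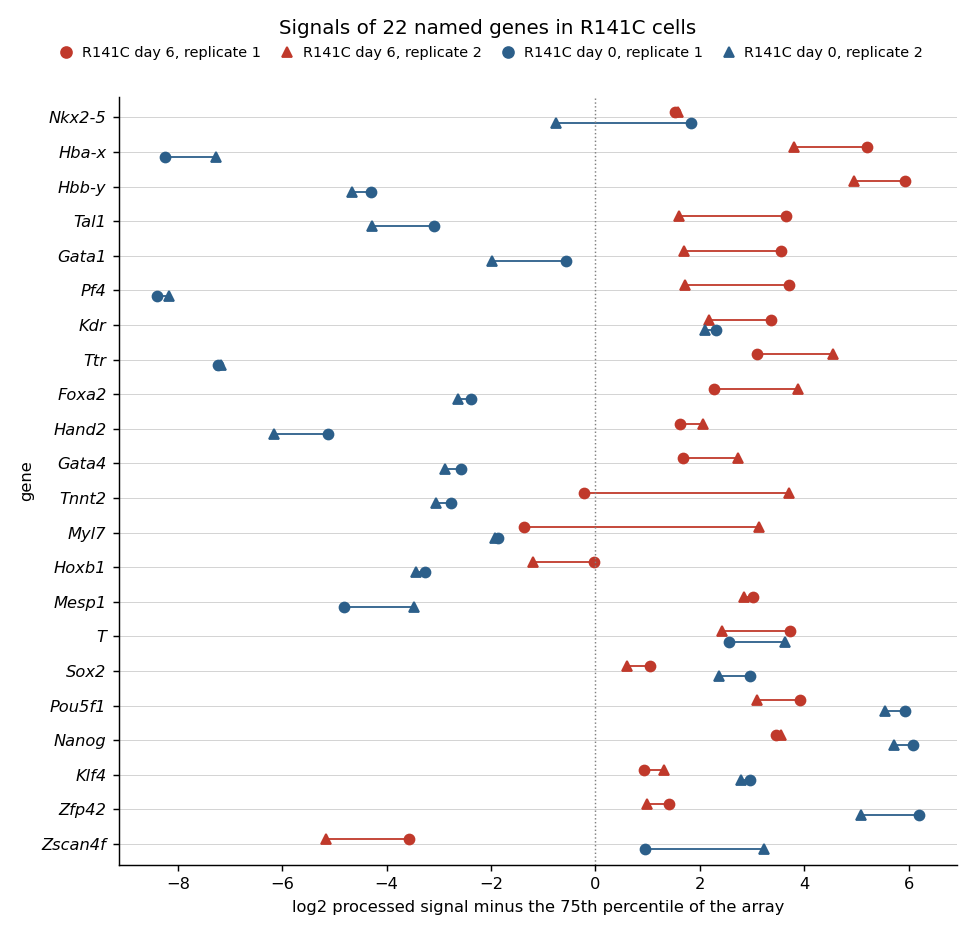
Signals of 22 named genes in the 4 R141C cultures. The x axis is log2 processed signal minus the array's 75th percentile. Circles are replicate 1 and triangles replicate 2, red at day 6 and blue at day 0, and a line joins the 2 cultures of a day. Hba-x, Ttr and Pf4 lie above 1.5 at day 6 and below -7 at day 0, while Nkx2-5 at day 6 lies between the 2 day 0 cultures and Tnnt2 and Myl7 differ widely between the day 6 cultures.

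The largest falls included Zscan4b, Zscan4f and Zscan4a, near-identical members of a family that marks a rare state of stem cells resembling the embryo at the 2-cell stage. They were 117-fold, 87.8-fold and 60.5-fold lower at day 6 (adjusted p = 0.0328, 0.0357 and 0.039). At day 0 Zscan4f was at 0.94 and 3.24 in the 2 cultures, and at day 6 at -3.57 and -5.17. Their signals may include each other's transcripts, since the copies are so alike. These 3 calls, and that of Gm21319, ended in each fit without any 1 of the 4 R141C arrays or the 2 WT day 6 arrays, with adjusted p up to 0.156. Khdc3, a maternal-effect gene of oocytes and early embryos, was at -2.78 and -4.08 at day 6 and at 4.14 and 1.77 at day 0 (log2 change -6.38 ± 0.95; adjusted p = 0.00788). Accsl, Crct1, Msln, Nr0b1, Eprn and Irak3 fell by 5.24 to 6.02 on the log2 scale. Calcoco2, Pou4f2 and Stmn4 were also among the largest falls, each with its call lost without 1 to 3 of the R141C arrays (adjusted p up to 0.080).

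Nkx2-5 itself did not pass the test in R141C cells. Its probe lies at chr17:26975621-26975680 (mm9) and measures the transcript, not the point change. The signal was 1.53 and 1.58 at day 6, against 1.84 and -0.77 at day 0 (log2 change 1.02 ± 0.76; adjusted p = 0.413). The 2 day 6 cultures were alike and lay between the 2 day 0 cultures. Without day 0 replicate 1 the change was 2.32 with an adjusted p of 0.0264, and without day 0 replicate 2 it was -0.28. In WT cells the probe was at 1.93 and 1.79 at day 6 and -1.27 and -2.02 at day 0 (log2 change 3.50 ± 0.76; adjusted p = 0.0192), and the test of the difference between genotypes gave an adjusted p of 0.883.

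The undifferentiated programme fell broadly and stayed measurable. Of 29 genes of naive pluripotency, 21 fell, 1 rose and 7 did not pass, with a median log2 change of -2.39. Zfp42, a marker of naive cells, was at 1.41 and 0.99 at day 6 and 6.21 and 5.09 at day 0 (21.8-fold lower; adjusted p = 0.00131). Nanog was at 3.46 and 3.56 at day 6 and 6.08 and 5.72 at day 0 (5.26-fold lower; adjusted p = 0.00333). Both cultures of day 6 were below both of day 0 for these 2 genes and for Esrrb, Gdf3, Tcl1 and Nr0b1, which fell by 3.32 to 5.65 on the log2 scale. Of all tested genes, 56% did not overlap between days in either direction, and for genes with large called changes a lack of overlap adds no support. Pou5f1, the central factor of the undifferentiated state, was at 3.91 and 3.10 at day 6 and 5.93 and 5.55 at day 0 (log2 change -2.23 ± 0.43; adjusted p = 0.0187). Sox2 had a log2 change of -1.85 ± 0.34 (adjusted p = 0.0165). The calls of Pou5f1 and Sox2 were lost without day 0 replicate 1 or day 6 replicate 2 of R141C, and that of Pou5f1 also without day 0 replicate 2 (adjusted p up to 0.101).

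The naive list was not uniform. Klf4 was at 0.93 and 1.31 at day 6 and at 2.96 and 2.79 at day 0, and did not pass (adjusted p = 0.0978). The RNA-binding protein Lin28a overlapped between days (adjusted p = 0.893). Tbx3 was the gene of the list that rose, with 4.55 and 4.56 at day 6 and 2.64 and 1.39 at day 0 (adjusted p = 0.0471), a call lost without any of the R141C or WT day 6 arrays (adjusted p up to 0.181). Tbx3 also acts in mesoderm, endoderm and the conduction system of the heart. Of the 22 called genes of the list, 16 kept their call in every fit with an array left out.

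Genes of the primed epiblast, the later pluripotent state, mostly did not pass. Of 14 tested, 1 rose, 4 fell and 9 did not pass, with a median of -0.29. The 1 that rose was Sox4, a call lost without any single array except day 0 replicate 2 of R141C. Its log2 change was 0.77 without day 0 replicate 1 and 1.51 without day 0 replicate 2. Foxd3 was at -4.47 and -2.67 at day 6 and at 1.39 and 0.40 at day 0 (log2 change -4.47 ± 0.63; adjusted p = 0.00636), and Pou3f1 fell by 2.59 (adjusted p = 0.00541). Without single arrays the fall of Foxd3 ranged from 3.57 to 5.37. Dnmt3b, the de novo DNA methyltransferase of this state, was at 5.53 and 6.30 at day 6 and at 6.20 and 6.19 at day 0, and Fgf5, its classical marker, at -1.06 and 2.26 against 0.75 and -1.20. The 2 cultures of a day overlapped with those of the other for both genes. Of the 7 tested genes of the 2-cell-like state, 2 fell, Zscan4a and Zscan4f, and the list's median was -2.66.

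**Figure D2:**
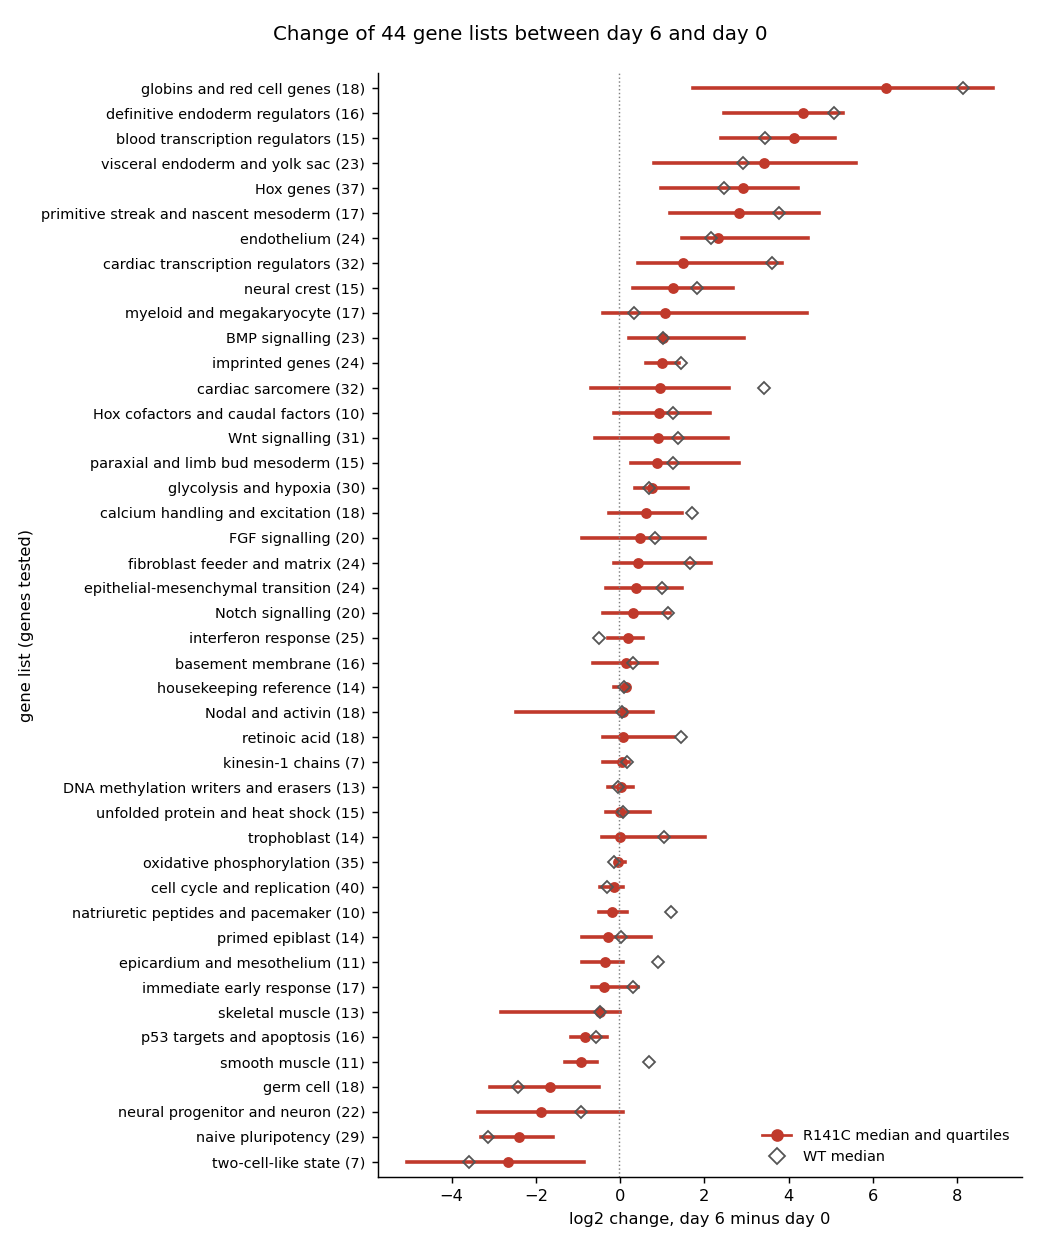
Median log2 change, day 6 minus day 0, of 44 gene lists. Red points and bars are the R141C median and quartiles, open diamonds the WT median, and the dotted line is the R141C median of all tested genes (-0.03). Red cell, endoderm, blood, Hox and primitive streak lists lie at the top and 2-cell-like state, naive pluripotency, neural and germ cell lists at the bottom.

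Genes of the primitive streak and nascent mesoderm were mostly higher at day 6: 10 of 17 rose and none fell, with a median of 2.81. Mesp1, a factor of the first cardiac mesoderm, was at 3.02 and 2.85 at day 6 and -4.83 and -3.47 at day 0 (136-fold higher; adjusted p = 0.000725). Pdgfra, a receptor of paraxial and cardiac mesoderm, was at 1.16 and 1.68 at day 6 and at -5.09 and -4.11 at day 0 (64.9-fold higher; adjusted p = 0.000697). Eomes and Lhx1 also rose, by 2.15 and 4.72 on the log2 scale. The 7 genes of the list that did not pass included its best known member. T, the streak and notochord factor, was at 3.72 and 2.42 at day 6 and at 2.56 and 3.63 at day 0 (log2 change -0.02 ± 0.55; adjusted p = 0.984). Its fitted log2 change in WT cells was 2.09, and the difference between genotypes did not pass the test. Kdr, a receptor of blood vessel and cardiac progenitors, was at 3.36 and 2.18 at day 6 and at 2.31 and 2.10 at day 0 (adjusted p = 0.356). Mixl1 missed the threshold (adjusted p = 0.0612). Without day 0 replicate 1, 5 of the 10 calls remained.

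Of 32 tested transcription regulators of the heart, 15 rose, 1 fell and 16 did not pass. The 1 that fell was Srf, a factor of muscle and immediate early genes, by 0.81 on the log2 scale (adjusted p = 0.033), with the call lost without any R141C or WT day 6 array (adjusted p up to 0.125). The list's median was 1.50. Hand2, a factor of the right ventricle and limb, was at 1.63 and 2.05 at day 6 and at -5.13 and -6.17 at day 0, where 1 of 2 arrays was above background (179-fold higher; adjusted p = 0.000455). Isl1, which marks progenitors of the second heart field, was at -0.19 and 0.24 at day 6 and -5.45 and -5.67 at day 0 (47.8-fold higher; adjusted p = 0.000725). Gata4, a partner of Nkx2-5, was at 1.68 and 2.72 at day 6 and -2.58 and -2.89 at day 0 (30.6-fold higher; adjusted p = 0.000916). Gata6 and Hand1 rose by 5.80 and 4.13 on the log2 scale. The 2 day 6 cultures were close together for these 5 genes, within 1.04 for Gata4, the widest apart.

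Other regulators of this list were less even. Tbx5, of the left ventricle and atria, was at -3.45 and -1.30 at day 6 and below background at day 0, at least 12.3-fold higher (adjusted p = 0.0106), a call lost without day 0 replicate 1 (adjusted p = 0.067). Mef2c, which activates muscle genes, was at -4.52 and -2.53 at day 6, at least 5.56-fold higher than day 0 (adjusted p = 0.0276). Without day 6 replicate 2 the log2 change of Mef2c was 1.90, and its call was lost there, without either day 0 array and without either WT day 6 array (adjusted p up to 0.139). Tbx20 rose by 2.86 on the log2 scale (adjusted p = 0.012), with the call lost without any of 3 R141C arrays (adjusted p up to 0.066). Eya1 and Mef2a had log2 changes of 0.28 and 0.37 and overlapped between days. Of the 16 called regulators, 9 kept their call in each fit with an array left out.

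Genes of the contractile apparatus separated the 2 day 6 cultures more than they separated the days. Of 32 tested, 5 rose, none fell and 27 did not pass, with a median change of 0.95, or 0.44 without day 6 replicate 2. Over the list, day 6 replicate 1 was lower than replicate 2 by a median of 2.09 on the log2 scale, and the median signal was -0.39 and 1.52 in the 2 day 6 cultures, against -1.72 and -1.51 at day 0. Tnnt2, cardiac troponin T, was at -0.22 and 3.71 at day 6 and at -2.78 and -3.06 at day 0 (log2 change 4.66 ± 1.15; adjusted p = 0.0392). Its change was 6.63 without day 6 replicate 1 and 2.70 without day 6 replicate 2, and the call was lost without any WT array or either day 0 array of R141C (adjusted p up to 0.139). Myl7, the atrial myosin light chain, was at -1.38 and 3.12 at day 6 and at -1.86 and -1.93 at day 0 (adjusted p = 0.195). Myh7, the slow myosin heavy chain, was at 1.65 and 4.84 at day 6 and at 0.29 and 1.27 at day 0 (adjusted p = 0.171). In each of these genes day 6 replicate 2 held the high signal.

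Some sarcomere genes were already measurable before differentiation. Myh6, the fast cardiac myosin heavy chain, was at -0.04 and 3.25 at day 6 and at 2.60 and 3.14 at day 0, and Actc1, cardiac actin, at 0.89 and 5.35 at day 6 and at 1.81 and 4.62 at day 0. For both genes day 6 replicate 1 was the lowest of the 4 cultures. Titin, encoded by Ttn, was at -6.47 and -1.91 at day 6, where 1 of 2 arrays was above background, and at -1.77 and -1.85 at day 0. Tmod1, which caps thin filaments, was the 1 sarcomere gene that kept its call in every fit, at -2.06 and -0.71 at day 6 and at least 24.5-fold higher than day 0 (adjusted p = 0.0028). Mybpc3, cardiac myosin-binding protein C, was at -0.03 and 1.95 at day 6 and at -2.47 and -2.74 at day 0 (adjusted p = 0.0109), with the call lost without either day 0 array (adjusted p up to 0.055) and a log2 change of 2.57 without day 6 replicate 2, against 3.57 with all arrays.

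**Figure D3:**
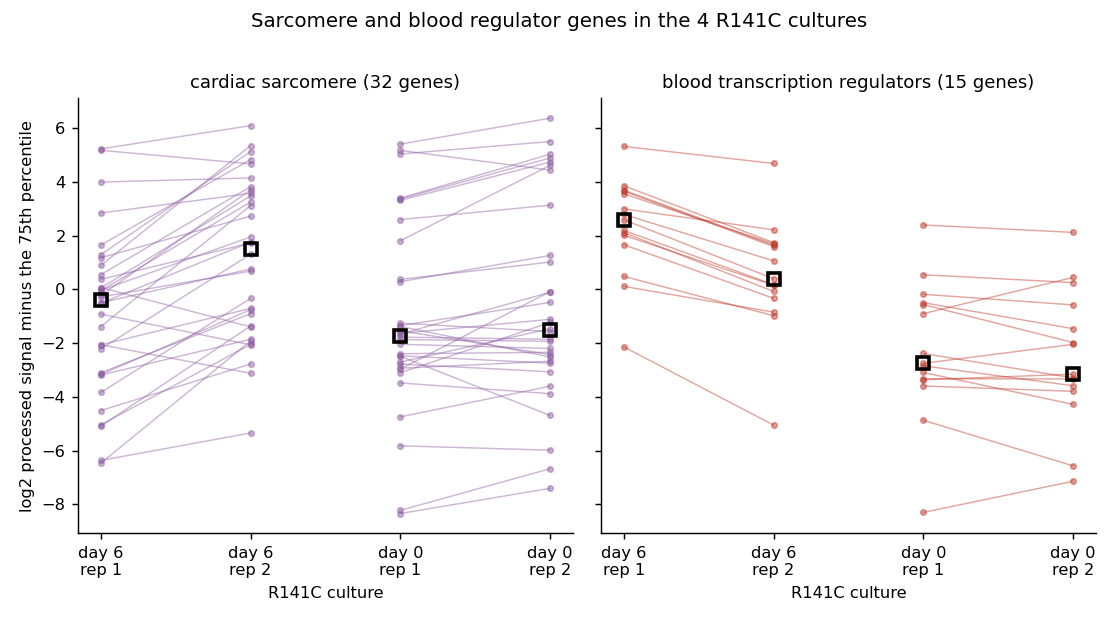
Signals of the tested sarcomere genes (left, 32) and blood transcription regulators (right, 15) in the 4 R141C cultures. Each small point is a gene, lines join the 2 cultures of a day, and open squares are list medians. At day 6 the sarcomere median is -0.39 in replicate 1 and 1.52 in replicate 2, while the blood regulator median is 2.60 in replicate 1 and 0.40 in replicate 2.

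Genes of calcium handling and excitation had 5 of 18 higher and 1 lower, with a median of 0.61. Kcnj5, a potassium channel subunit of atrial and nodal cells, was at 0.98 and 0.35 at day 6 and -5.70 and -4.76 at day 0 (59.5-fold higher; adjusted p = 0.000886). It was the 1 gene of this list whose call held with each array left out. Ryr2, the calcium release channel of the heart, was at -6.89 and -2.84 at day 6 and at -5.51 and -5.44 at day 0 (adjusted p = 0.757), again with the higher signal in day 6 replicate 2. Atp2a2, the calcium pump of the sarcoplasmic reticulum, was at 0.43 and 1.06 at day 6 and 1.19 and 1.48 at day 0 (adjusted p = 0.198). Of 10 tested natriuretic and pacemaker genes 1 rose, Gja5, a connexin of atria, conduction fibres and arterial endothelium, by 3.69 on the log2 scale (adjusted p = 0.000745). Nppa, the atrial natriuretic peptide, was at -4.27 and -2.21 at day 6 and at -3.79 and -1.46 at day 0 (adjusted p = 0.695). Pln and Hcn4 were not tested, since their probes were not well above background on both arrays of any group.

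Smooth muscle and matrix genes showed a spread between the 2 cultures at day 0. Of 11 smooth muscle genes none rose and 1 fell, with a median of -0.92 (-0.88 with lower bounds in place), which was -1.68 without day 0 replicate 1 and -0.35 without day 0 replicate 2. Cnn1, calponin, was at 3.08 and 2.80 at day 6 and at 4.82 and 6.16 at day 0 (log2 change -2.55 ± 0.56; adjusted p = 0.0275), with the call lost without 5 of the 8 arrays (adjusted p up to 0.102) and a change of -1.88 without day 0 replicate 2. Tagln was at 4.98 and 5.54 at day 6 and at 6.99 and 8.10 at day 0 (adjusted p = 0.0823). Markers of fibroblasts and their matrix, 24 tested, had 2 higher (8.33%) and 1 lower (4.17%), against 7.6% and 8.03% of all tested genes, with a median of 0.42. Day 0 replicate 1 was lower than replicate 2 by a median of 1.11 over the smooth muscle list and 1.08 over the fibroblast list. At day 6 the same differences were 0.41 and 1.15. The collagen gene Col1a1, for example, was at 3.12 and 4.71 at day 6 and at 2.28 and 4.77 at day 0, so that replicate 2 was higher at both days. The part of fibroblasts in the smooth muscle and sarcomere values was not tested.

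Of 11 markers of epicardium and mesothelium, 2 rose and 2 fell. Bnc1 and Tcf21 were at least 24.1-fold and 8.29-fold higher at day 6 (adjusted p = 0.00182 and 0.00192). Msln, mesothelin, was at -5.58 and -4.84 at day 6, above background on 1 of 2 arrays, and at 0.36 and 0.85 at day 0 (adjusted p = 0.00137), and Wt1 at -1.39 and -0.44 against 2.46 and 1.25 (adjusted p = 0.0285). Members of this list therefore moved in opposite directions. The call of Wt1 was lost without day 0 replicate 1 or either day 6 array of R141C (adjusted p up to 0.140).

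Genes of vessels and blood rose together. Of 24 endothelial genes, 16 rose and none fell, with a median of 2.32 (2.23 with lower bounds in place). Cdh5, the cadherin of endothelial junctions, was at 1.17 and 0.36 at day 6 and at -5.80 and -5.82 at day 0, where 1 array was above background (95.5-fold higher; adjusted p = 0.00149). Sox17 was at 2.44 and 3.40 at day 6 and at -3.29 and -4.08 at day 0 (97.3-fold higher; adjusted p = 0.000697), and Tie1, an endothelial receptor, was 57.2-fold higher. Sox17 is also an endoderm factor. Pecam1, an adhesion molecule that stem cells express too, was at -0.94 and -1.06 at day 6 and at -0.63 and -1.56 at day 0 (adjusted p = 0.882). Etv2, which starts the endothelial and blood lineages, was at 3.63 and 2.26 at day 6 and at 1.41 and 1.11 at day 0 (adjusted p = 0.0625).

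Transcription regulators of blood rose in 12 of 15 genes and fell in none, with a median of 4.13 (3.90 with lower bounds in place). In settings that omitted no single array the median was as low as 2.77. Tal1, needed for the first blood cells, was at 3.66 and 1.60 at day 6 and at -3.09 and -4.28 at day 0 (79.5-fold higher; adjusted p = 0.00449). Lyl1, its relative, was 90.1-fold and Nfe2, a factor of red cells and platelets, 35.3-fold higher. Gata1, the main red cell factor, was at 3.56 and 1.70 at day 6 and -0.56 and -1.98 at day 0 (log2 change 3.90 ± 0.91; adjusted p = 0.0329), a call lost without either day 0 array or day 6 replicate 1 of R141C (adjusted p up to 0.137). Runx1, a factor of definitive blood stem cells, overlapped between days, with 2.02 and 0.15 at day 6 and -0.90 and 0.45 at day 0. The median signal over the list was 2.60 and 0.40 in the 2 day 6 cultures, against -2.75 and -3.15 at day 0, so that replicate 1 held the higher day 6 signal, the opposite of the sarcomere genes. Of the 12 calls, 8 remained without day 0 replicate 1 or without day 0 replicate 2.

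Red cell genes held the largest median of the 44 lists, 6.31, or 4.66 with lower bounds in place of fitted values. The median was 1.85 where only genes above background on all 8 arrays were tested, which left 11 of the 18 genes. With that filter it was no longer the largest, since that of definitive endoderm regulators was at least 3.01 in every setting that omitted no single array. Of 18 tested, 13 rose and none fell, and 11 of the 13 kept their call in all fits with an array left out. Hbb-y was at 5.93 and 4.96 at day 6 and at -4.30 and -4.67 at day 0. Hbb-bh1 was at 7.70 and 6.93 at day 6 and at -2.14 and -2.73 at day 0. Hba-a1 and Hba-a2, the near-identical adult alpha globin genes, were 347-fold and 415-fold higher (adjusted p = 0.000725 and 0.000697), and their probes may each detect both transcripts. Of the adult beta globin genes, which are also near-identical, Hbb-b1, Hbb-b2 and Hbb-bt were at least 29.5-fold, 114-fold and 147-fold higher, and these 3 were chosen after their values were seen. In all 8 tested globin genes day 6 replicate 1 was the higher of the 2 day 6 cultures. Hemgn had signals of 7.36 and 6.89 at day 6 and 7.05 and 6.56 at day 0, with no change passing.

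The probes of the embryonic and of an adult alpha globin are printed because the largest rise of the comparison rests on the first of them. Both lie on the plus strand of chromosome 11, at chr11:32177668-32177727 for Hba-x and chr11:32183955-32184014 for Hba-a1 (mm9), as the deposited files give them.
Hba-x probe: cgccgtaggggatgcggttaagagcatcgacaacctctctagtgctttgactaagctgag
Hba-a1 probe: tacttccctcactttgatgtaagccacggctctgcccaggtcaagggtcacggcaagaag
The promoters of 3 genes with large rises are printed with the letters that Gata factors bind in capitals. They run from 250 bases before to 50 bases after the start of the transcript, from RefSeq on GRCm38.p6. Hba-x is at chr11:32276350-32276649 (plus strand), Hbb-y at chr7:103853158-103853457 (minus strand) and Pf4 at chr5:90772185-90772484 (plus strand).
Hba-x promoter: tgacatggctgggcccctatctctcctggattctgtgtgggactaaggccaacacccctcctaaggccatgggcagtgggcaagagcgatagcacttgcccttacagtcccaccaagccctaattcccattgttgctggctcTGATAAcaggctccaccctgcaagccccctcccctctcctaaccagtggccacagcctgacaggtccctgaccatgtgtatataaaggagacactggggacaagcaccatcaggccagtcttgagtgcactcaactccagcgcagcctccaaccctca
Hbb-y promoter: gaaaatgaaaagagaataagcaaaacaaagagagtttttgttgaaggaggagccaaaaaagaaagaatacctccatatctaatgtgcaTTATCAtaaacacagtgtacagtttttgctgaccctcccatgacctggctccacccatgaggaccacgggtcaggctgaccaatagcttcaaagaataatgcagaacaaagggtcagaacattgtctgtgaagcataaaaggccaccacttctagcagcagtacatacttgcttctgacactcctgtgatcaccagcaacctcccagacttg
Pf4 promoter: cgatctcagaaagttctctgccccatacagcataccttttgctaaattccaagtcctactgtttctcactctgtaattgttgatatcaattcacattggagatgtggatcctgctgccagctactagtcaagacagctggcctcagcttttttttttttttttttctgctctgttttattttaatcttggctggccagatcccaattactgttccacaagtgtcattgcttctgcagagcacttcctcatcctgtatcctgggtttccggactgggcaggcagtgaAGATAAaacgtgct
The letters searched were AGATAA and TGATAA on both strands. At least 1 of them was in the promoters of 21.0% of all genes with a promoter sequence. Among the 13 red cell genes that rose, 7 had a promoter sequence and 6 of these held a match. The 6 include Hba-a1 and Hba-a2, near-identical genes that are counted separately. The counts were 4 of 10 among the blood regulators that rose and 2 of 7 among myeloid and megakaryocyte genes that rose. Over all tested genes of these lists they were 8 of 11, 4 of 13 and 3 of 14. A match describes the letters and shows no binding.

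Of 17 myeloid and megakaryocyte genes 8 rose and none fell, and all 8 calls held with each array left out. Itga2b, an integrin of megakaryocytes and early blood progenitors, was at 1.40 and -0.54 at day 6 and at -4.48 and -3.91 at day 0 (24.6-fold higher; adjusted p = 0.00707), with a log2 change of 3.65 to 5.59 over the fits without an array. The platelet glycoproteins Gp1ba and Gp9 were at least 16.7-fold and 26.2-fold higher. Srgn, the proteoglycan of blood cell granules, was at -0.36 and -0.93 at day 6 and at -4.06 and -3.56 at day 0 (8.97-fold higher; adjusted p = 0.00171). Ptprc, the pan-leukocyte CD45 antigen, was at -4.94 and -5.75 at day 6, above background on 1 of 2 arrays, and -5.51 and -5.65 at day 0 (adjusted p = 0.709). Csf1r and Itgam, of macrophages, had adjusted p of 0.235 and 0.314.

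Endoderm genes were high at day 6 in R141C cells. Of 23 genes of visceral endoderm and yolk sac, 14 rose and 1 fell, with a median of 3.42, or 1.76 over genes above background on all 8 arrays. Apoc2, an apolipoprotein, was at 2.12 and 3.34 at day 6 and at -3.86 and -4.13 at day 0 (106-fold higher; adjusted p = 0.000745). Afp, alpha-fetoprotein, was at 0.10 and 3.52 at day 6 and at -6.12 and -4.77 at day 0, where 1 of 2 arrays was above background (153-fold higher; adjusted p = 0.00712), and its log2 change ranged from 5.55 to 8.97 without single arrays. Hnf4a, the regulator of the visceral endoderm and liver programme, was 100-fold higher (log2 change 6.65 ± 0.65; adjusted p = 0.00192), and Rbp4, the plasma carrier of retinol, 52.3-fold higher. Both day 6 cultures were above both day 0 cultures for these 4 genes, while 56% of all tested genes did not overlap between days in either direction. The 4 genes were named for large passing rises, so their lack of overlap adds no support. Lrp2, an uptake receptor of the same tissue, fell by 2.65 on the log2 scale (adjusted p = 0.0168), with the call lost without any R141C array (adjusted p up to 0.077). Regulators shared with definitive endoderm rose in 12 of 16 genes and fell in none, with a median of 4.33 (3.97 with lower bounds in place). Foxa2 was at 2.28 and 3.87 at day 6 and at -2.38 and -2.64 at day 0 (48.1-fold higher; adjusted p = 0.00204). Cer1, of anterior endoderm, was at -3.90 and 0.77 at day 6, at least 21.6-fold higher than day 0 (adjusted p = 0.0423), a call lost without any WT array or either day 0 array (adjusted p up to 0.146).

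Of 22 neural genes, 11 fell and none rose, with a median of -1.87, and 7 of the 11 calls held with each array left out. Nefl, the light neurofilament, was at 0.42 and 1.03 at day 6 and at 3.91 and 4.72 at day 0 (12.0-fold lower; adjusted p = 0.00569). Tubb3, the neuronal tubulin, was at 0.13 and 0.48 at day 6 and at 3.33 and 2.96 at day 0 (7.17-fold lower; adjusted p = 0.00302). Pax6, of neural progenitors, was not well above background at day 6 and was at -1.49 and -3.54 at day 0 (adjusted p = 0.073). Of the called genes Sox2 also belongs to the naive pluripotency list.

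Neural crest and paraxial lists were mixed. Of 15 neural crest genes 5 rose and 2 fell, with a median of 1.26. Sox9 was at -1.10 and -0.74 at day 6 and -5.78 and -5.05 at day 0 (22.6-fold higher; adjusted p = 0.000886), Msx2 was 14.8-fold higher, and Sox10, of migrating crest, had an adjusted p of 0.477. Of 15 genes of paraxial and limb bud mesoderm 4 rose and 1 fell, with Pitx1, a hindlimb factor, 94.7-fold higher (adjusted p = 0.00229). In the skeletal muscle list 3 of 13 fell and none rose, and Myod1, the myogenic factor, did not pass (adjusted p = 0.638).

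Of 18 germ cell genes 1 rose and 6 fell, with a median of -1.66. Dazl was not above background at day 6 and at least 5.21-fold lower than day 0 (adjusted p = 0.00191), Mael, of transposon silencing, was 9.03-fold lower (adjusted p = 0.000886), and Ddx4 fell by 2.30 on the log2 scale. Of 14 trophoblast genes 4 rose and none fell, with a median of -0.01. Cdx2, which also patterns posterior mesoderm, was at 4.76 and 4.30 at day 6 and 1.76 and 0.48 at day 0 (adjusted p = 0.0133), a call lost without day 0 replicate 2 or day 6 replicate 1 (adjusted p up to 0.061). Elf5, a defining trophoblast factor, was at -6.06 and -5.22 at day 6 and -5.46 and -5.33 at day 0 (adjusted p = 0.884).

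Hox genes, which pattern the body axis from head to tail, rose in 19 of 37 and fell in none, with a median of 2.92 (2.77 with lower bounds in place). In settings that omitted no single array the median was as low as 2.14. Hoxd1 was at 0.30 and 0.34 at day 6 and at -4.54 and -4.71 at day 0 (30.9-fold higher; adjusted p = 0.000437). Hoxb2 was at 2.92 and 2.26 at day 6 and -2.18 and -3.13 at day 0 (37.9-fold higher; adjusted p = 0.00183), and Hoxb6 was 49.5-fold higher. Over the list replicate 1 was higher than replicate 2 by a median of 1.09 at day 6 and 0.96 at day 0. Of the 19 calls, 8 held with each array left out. Hoxb1, of the hindbrain and early mesoderm, rose by 2.74 on the log2 scale (adjusted p = 0.0151), a call lost without either day 0 array or day 6 replicate 1 (adjusted p up to 0.071).

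Of 18 genes of retinoic acid synthesis, breakdown and signalling, 4 rose and none fell, with a median of 0.06. The degrading enzymes Cyp26a1 and Cyp26b1 were 10.2-fold and 5.37-fold higher (adjusted p = 0.00397 and 0.00454). Aldh1a2, the synthesizing enzyme of the embryo, was at -1.07 and -1.09 at day 6 and at -1.39 and 0.13 at day 0 (adjusted p = 0.571).

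In the Nodal and activin pathway, which maintains the epiblast and induces mesoderm and endoderm, 4 of 18 genes rose and 5 fell. The ligand Nodal was at 1.19 and 2.05 at day 6 and at 3.61 and 4.20 at day 0 (4.88-fold lower; adjusted p = 0.00814). Its antagonist Lefty1 fell by 2.55 on the log2 scale (adjusted p = 0.0195) and its co-receptor Tdgf1 by 2.77 (adjusted p = 0.0203), both with the call lost without 2 or 3 of the R141C arrays (adjusted p up to 0.100). Of the 9 calls in this list 2 held with each array left out.

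In the BMP pathway 8 of 23 genes rose and none fell, with a median of 1.03, or 0.59 without day 0 replicate 1. Bmp5, a ligand of heart and allantois, was at least 19.2-fold higher (adjusted p = 0.00305). Smad6, an inhibitor induced by the pathway, was at 2.68 and 2.92 at day 6 and at -1.30 and -1.89 at day 0 (21.1-fold higher; adjusted p = 0.000725). Bmp4 and the response gene Id1 had higher signals at day 6 in both cultures without passing (adjusted p = 0.112 and 0.18).

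In the Wnt pathway 10 of 31 genes rose and 1 fell, with a median of 0.89. The ligand Wnt2, of the posterior heart field, was at least 12.3-fold higher (adjusted p = 0.000495), and the ligand Wnt5a was 11.3-fold higher (adjusted p = 0.00192). The antagonist Dkk1 was 20.3-fold higher (adjusted p = 0.00175), and the agonist Rspo3 and the receptor Lgr5 rose by 4.78 and 4.34 on the log2 scale. Rspo3 changed by 3.76 to 5.80 without single arrays. Axin2, a feedback gene of the pathway, was at 1.09 in both day 6 cultures and at 0.16 and 1.14 at day 0 (adjusted p = 0.413).

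FGF ligands moved in both directions. Fgf4, of stem cells, was at 1.07 and 1.38 at day 6 and at 4.50 and 3.34 at day 0 (6.48-fold lower; adjusted p = 0.00666, with a fall of 2.12 to 3.28 on the log2 scale without single arrays). Fgf10, of the second heart field, was at 0.90 and 0.95 at day 6 and at -4.12 and -3.68 at day 0 (28.3-fold higher; adjusted p = 0.000455). Fgf3 and Fgf15 were 94.7-fold and 17.4-fold higher. The list as a whole had 7 of 20 higher and 4 lower. In the Notch pathway 5 of 20 rose and 1 fell, and the target Hey1 was at 2.85 and 2.52 at day 6 and -0.48 and -0.47 at day 0 (8.92-fold higher; adjusted p = 0.000725).

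Of 24 genes of the epithelial-mesenchymal transition 4 rose and 2 fell, with a median of 0.38, and none of the 6 calls was left without day 0 replicate 1. Cdh1, E-cadherin, was at 2.81 and 3.38 at day 6 and 4.85 and 4.75 at day 0 (adjusted p = 0.0244). The call of Cdh1 was lost without either day 0 array or day 6 replicate 1 of R141C (adjusted p up to 0.111). Cdh2, N-cadherin, was at 4.21 and 4.22 at day 6 and 1.40 and 3.13 at day 0 (adjusted p = 0.0705). The basement membrane list had 1 of 16 higher, the laminin chain Lama4, and 1 lower, Lama5, whose call was lost without 5 of the 8 arrays (adjusted p up to 0.126).

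Among DNA methylation genes, Dnmt3l, a cofactor of stem and germ cells, was at 2.08 and 0.82 at day 6 and 5.47 and 5.11 at day 0 (14.3-fold lower; adjusted p = 0.00278). Tet1, which oxidizes methylcytosine, was at 1.04 and 1.02 at day 6 and at 3.20 and 3.04 at day 0 (4.25-fold lower; adjusted p = 0.00229). Dnmt1 had a log2 change of 0.30 with an adjusted p of 0.478. Of the 13 genes 2 rose and 2 fell. Imprinted genes, expressed from 1 parental copy, had 7 of 24 higher and none lower. H19 was at 8.86 and 7.69 at day 6 and 5.69 and 4.69 at day 0 (adjusted p = 0.013), a call lost without day 0 replicate 2 or day 6 replicate 1 (adjusted p up to 0.059). Igf2, its neighbour, was at -2.75 and 2.07 at day 6 and -4.23 and -1.60 at day 0, and Dlk1 at 1.61 and 6.05 against 2.72 and 2.21. For both genes day 6 replicate 2 was far above replicate 1. Of the 7 calls in the imprinted list 1 held with each array left out, that of Usp29.

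Genes of glycolysis and the response to low oxygen rose in 13 of 30 and fell in none, with a median of 0.77. Bnip3, of mitochondrial turnover, was at 5.37 and 5.86 at day 6 and at 2.15 and 2.69 at day 0 (9.18-fold higher; adjusted p = 0.00688). Egln3, an oxygen sensor induced by low oxygen, was at 2.81 and 2.38 at day 6 and -0.62 and -0.69 at day 0 (9.49-fold higher; adjusted p = 0.00827). Aldoc was 5.86-fold higher (adjusted p = 0.00141), and Pgk1 was at 8.18 and 8.21 at day 6 and at 6.60 and 6.71 at day 0 (2.91-fold higher; adjusted p = 0.0112, lost without day 0 replicate 1 at 0.064). The enzymes Gapdh and Ldha did not pass, with log2 changes of 0.17 and 0.39. Without day 0 replicate 1 the calls of the list dropped to 4. Of 35 oxidative phosphorylation genes none rose and 1 fell, with a median of -0.04.

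Promoters of 2 of these genes are printed with the core letters ACGTG of the hypoxia response element in capitals, from RefSeq on GRCm38.p6. Pgk1 is at chrX:106186850-106187149 (plus strand) and Bnip3 at chr7:138909457-138909756 (minus strand).
Pgk1 promoter: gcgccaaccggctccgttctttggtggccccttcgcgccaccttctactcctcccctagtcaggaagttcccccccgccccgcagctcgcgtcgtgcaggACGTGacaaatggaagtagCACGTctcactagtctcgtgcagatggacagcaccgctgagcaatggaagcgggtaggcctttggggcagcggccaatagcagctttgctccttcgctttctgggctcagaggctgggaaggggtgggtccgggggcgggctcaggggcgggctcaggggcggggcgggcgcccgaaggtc
Bnip3 promoter: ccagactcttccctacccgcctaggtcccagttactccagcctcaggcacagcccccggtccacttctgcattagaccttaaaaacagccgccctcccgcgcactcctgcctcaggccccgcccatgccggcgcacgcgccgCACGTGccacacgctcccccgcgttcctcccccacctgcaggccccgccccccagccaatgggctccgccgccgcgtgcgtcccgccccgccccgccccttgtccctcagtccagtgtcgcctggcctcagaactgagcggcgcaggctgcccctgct
The letters were searched on both strands, and in Bnip3 the matches of the 2 strands overlap. They were in the promoters of 21.8% of all genes with a promoter sequence. In the glycolysis and hypoxia list 19 of the 29 tested genes with a promoter held them, and 9 of the 13 genes that rose. The share among the genes that rose was therefore close to that of the whole list.

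Cell cycle and replication genes mostly did not pass: they had 1 of 40 higher and 2 lower, with a median of -0.14. Ccne1, cyclin E1, was at 3.95 and 4.41 at day 6 and 6.62 and 6.10 at day 0 (4.54-fold lower; adjusted p = 0.0039). Mki67, a mark of cycling cells, was at 4.91 and 4.64 at day 6 and 4.54 and 4.45 at day 0 (adjusted p = 0.441). Of 16 genes of the p53 response none rose and 1 fell, with a median of -0.84, or -0.56 without day 0 replicate 2. Trp53 itself was at 0.84 and 0.35 at day 6 and at 1.65 and 1.52 at day 0 (adjusted p = 0.0856). Of 25 interferon response genes 2 rose (8%) and 3 fell (12%), against 7.6% and 8.03% of all tested genes, with a median of 0.18. Rsad2 was at least 5.11-fold higher and Oasl1 5.84-fold and Ddx58 3.25-fold lower. Of 17 immediate early genes 2 fell and none rose. Hspb1, a small heat shock protein high in stem cells, was at 5.88 and 6.05 at day 6 and 7.89 and 8.02 at day 0 (3.96-fold lower; adjusted p = 0.00266), 1 of 2 calls among 15 heat shock and unfolded protein genes. Among 7 kinesin-1 chains Klc3 rose, a call lost without 5 of the 8 arrays (adjusted p up to 0.121), and among 14 housekeeping genes Pgk1 rose. The medians of these lists were 0.04 and 0.13.

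In WT the same comparison of days called 6206 genes (24%), 2861 higher (11%) and 3345 lower (12.9%). Of the genes that rose in R141C, 1603 also rose in WT, 81.4% of the R141C list and 56.0% of the WT list. Of those that fell, 1681 also fell in WT, 80.9% and 50.3% of the lists, and 3 genes were called in opposite directions. The change had the same sign in WT for 3998 of the 4048 genes called in R141C. The 2 sets of changes correlated across the tested genes with r = 0.860 and rho = 0.787, a description of genes that share libraries and probes. The groups of the 2 comparisons were separate arrays of 1 fit.

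The difference of the day effect between genotypes passed for none of the 25892 genes in limma (0%), with a smallest adjusted p of 0.122, and 1460 genes had an unadjusted p under 0.05. Ces2h, a carboxylesterase, was at -3.11 and -3.50 at day 6 and not above background at day 0 in R141C, at least 6.48-fold higher, and its fitted change exceeded that in WT by 3.90 ± 0.42 on the log2 scale (adjusted p = 0.138). The other 4 genes with the smallest p among differences above 0 were Gria1, Srgn, Amn and Cldn24. Below 0 they were Foxd1, Foxb1, Sncaip, Lrrc39 and A530020G20Rik, with Foxb1 at -4.23 and -3.22 at day 6 and -4.85 and -4.33 at day 0 in R141C, and a difference of -4.84 ± 0.53 (adjusted p = 0.138). The rises of Amn, Foxd1 and Sncaip within R141C were each lost without 2 to 5 of the arrays (adjusted p up to 0.136). In R141C, Cldn24, Lrrc39 and A530020G20Rik were not above background at either day. The median change of sarcomere genes was 0.95 in R141C against 3.41 in WT, and that of cardiac regulators 1.50 against 3.61. The median over genes of the difference between genotypes was -2.46 for sarcomere genes, -1.89 for smooth muscle, -1.46 for epicardium and mesothelium and -1.26 for cardiac regulators. These were the lowest of the 44 lists, and the highest were 0.76 for naive pluripotency, 0.73 for interferon response and 0.71 for blood regulators. No gene of these lists passed the test of the difference, so these are given as values. The median sarcomere signal was -0.39 and 1.52 in the 2 R141C day 6 cultures, against 1.88 and 2.34 in the WT day 6 cultures. For smooth muscle the day 6 medians were alike, at 1.47 and 1.88 in R141C and 1.18 and 1.83 in WT. At day 0 they were 1.49 and 3.36 in R141C and 2.24 and 0.73 in WT.

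**Figure D4:**
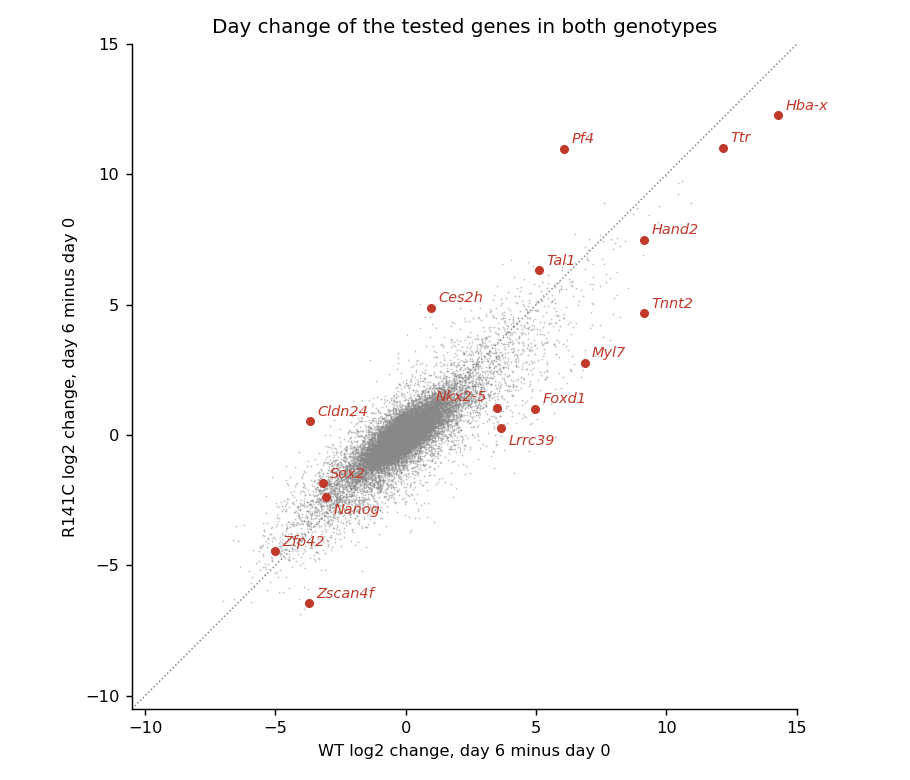
Log2 change, day 6 minus day 0, in R141C cells (y axis) against WT cells (x axis) for the tested genes. Grey points are genes, red points are named genes and the dotted line marks equal change; values of genes below background in a group are as fitted. Pf4, Ces2h and Cldn24 lie above the line and Tnnt2, Myl7, Foxd1 and Lrrc39 below it, but none of the differences passed the test.

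The 2 R141C cultures of a day also differed by chromosome. Between replicates 1 and 2, the median log2 difference was 0.36 on chromosome 8 and 0.40 on chromosome 19 at day 6, and 0.42 on both at day 0. On chromosome 1 it was 0.21 at day 6 and 0.35 at day 0, and on chromosome 11 it was 0.24 at day 6 and 0.13 at day 0. On the other autosomes and X it was at most 0.09 at day 6 and 0.14 at day 0. Replicate 1 was thus the higher culture on every autosome and X at both days, but by at least 0.21 at both days only on chromosomes 1, 8 and 19. The change between days was near 0 for these chromosomes, with medians from -0.01 on chromosome 8 to 0.02 on chromosome 19, and -0.09 on chromosome 11. Removing the median change of each chromosome left 4023 called genes, 3929 of them shared.

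**Figure D5:**
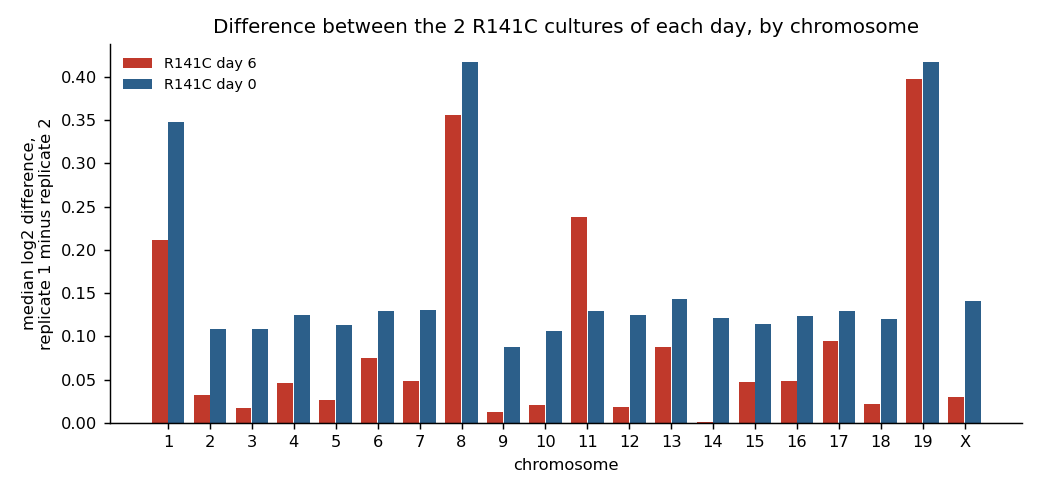
Median log2 difference between replicate 1 and replicate 2 of R141C, by chromosome, at day 6 (red) and day 0 (blue), over the tested genes of each chromosome. Bars of chromosomes 1, 8 and 19 exceed 0.2 at both days, and that of chromosome 11 exceeds 0.2 at day 6.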

How the data were processed

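RNA of 8 cultures was labelled with Cy3 and hybridised to 1-colour Agilent mouse arrays. The deposited scanner files hold intensity values: per the file headers, Feature Extraction 11.5.1.1 subtracted background and detrended each array (the labels name version 10.5.1.1), with nothing done between arrays. The deposited series matrix holds log2 values whose making is not given in the sources used here. Its columns correlated with the log2 scanner values at 0.9996 to 0.9999, their scale was log2 and their medians were 9.849 to 9.8725, and they served as an alternative. The authors' flags for background, saturation and outliers were used as deposited.

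From the processed signal, log2 minus each array's 75th percentile was computed after control and outlier spots were left out. Of 55681 probes, 98 were dropped, and 2060 were renamed through RefSeq accessions or synonyms; 22360 of 34736 names are current symbols. The brightest probe on average stood for a gene, which was tested if the 2 arrays of some group both had this probe flagged as well above background (25892 genes). limma 3.58.1 in R 4.3.3 fitted the 4 group means over 8 arrays (4 residual and 2.70 prior degrees of freedom), two-sided, with Benjamini-Hochberg adjustment. Every adjusted p and SE in the text comes from limma. Where all probes of a gene were below background in 1 group, the fold is a lower bound against the array's lowest signal above background, or the probe's own if higher. The fit was tested on simulated data. Figures were drawn with matplotlib 3.10.9 in Python 3.11.15.

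Named genes were Nkx2-5, the 15 largest non-overlapping rises and falls, key genes of 44 lists, up to 4 passing genes per direction and up to 2 non-passing genes with the highest signal per list, and the 5 smallest p per direction for the difference between genotypes. The members and lists were chosen with earlier results of these data known. Alternatives covered normalization, background correction, deposited values, filters, variance settings, arrays in the fit, probe choice, chromosome medians, blocking on replicate number and omitting single arrays. Some results under this rule are not reported here.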

Additional observations from a re-analysis of the deposited data

How the results depend on the processing

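No gene called in R141C with all arrays turned its direction in any alternative that also called it. The counts stayed within 1.5 times of 4048 under another normalization, background correction, filter, variance setting, probe choice or chromosome adjustment, from 3230 without a filter to 4431 with trended, robust variances. With only the 4 R141C arrays the count was 2458, of which 1121 were higher and 1337 lower, and 2235 were shared with the 4048. Leaving out 1 array in turn gave 1619 to 4262 called genes, 797 to 1984 higher and 822 to 2278 lower. Of the R141C arrays, omitting day 0 replicate 1 gave the lowest count, omitting day 0 replicate 2 gave 2424 and omitting day 6 replicate 1 gave 2573, while omitting either WT day 6 array gave 2552. For wild type day 6 against day 0 the range was 2152 to 6412, with the lowest without WT day 6 replicate 2, 2473 without WT day 6 replicate 1 and 4012 without WT day 0 replicate 2. An arm left with 1 array was assumed to vary like the other groups. The difference between genotypes had 7 genes under quantile normalization, among them Ces2h, Gria1, Lrrc39 and A530020G20Rik, and 1 with the deposited series matrix values, against 0 otherwise; the cause was not tested. Normexp moved the median change of all genes to 0.08, against -0.03, and the share of higher calls to 54.4%, against 48.6%. Of the 44 list medians, 16 changed sign in some setting, the largest of these 0.49 in size. Among lists with larger medians, that of the 2-cell-like state was -1.33 with normexp, against -2.66. The median change of the list globins and red cell genes was 3.13 with normexp and 1.85 with the filter on all 8 arrays, against 6.31. The median change of the list visceral endoderm and yolk sac was 1.76 with that filter and 1.99 with the mean of all probes of a gene, against 3.42.

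The labels do not pair the replicate numbers. Same-numbered cultures deviated together within R141C (r = 0.339) but not within WT (3.3e-05), at day 6 across genotypes (0.066) or at day 0 (-0.136). A replicate block over all 8 arrays called 3989 genes and one within each genotype 3803, and the difference between genotypes stayed at 0 genes.

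Slide position and day cannot be told apart. Genes near or below background have only bounds, and 2 cultures per group limit which changes can pass.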
